A study of Mus musculus with 6 samples.

Results

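Monocytes are blood-borne myeloid cells that leave the bone marrow through the chemokine receptor Ccr2, and the spleen also keeps a reserve of them in its red pulp. In tissue they can become macrophages or dendritic cells, and during inflammation they are known sources of chemokines and acute phase proteins. Phenylhydrazine (PHZ) oxidizes hemoglobin and destroys red cells, so the spleen of a treated mouse takes up damaged cells and becomes a site of stress erythropoiesis.

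The cells described here were chosen by measured counts in the untreated and the PHZ spleen. A cell was a monocyte-gated cell if its counts of Ccr2, Ms4a6c, Clec4a3 and F13a1, 4 genes of monocytes and related myeloid cells, summed to at least 3 and its counts of C1qa, C1qb and C1qc, the complement genes of tissue macrophages, summed to fewer than 3. This rule took 7582 of the 202920 cells of both spleens, out of 521938 cells in all 6 sections of the series. They were 4854 of 108338 cells in the untreated spleen and 2728 of 94582 cells in the PHZ spleen.

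Both spleens came from adult wild-type C57BL/6 mice, 1 mouse and 1 section per condition. The PHZ mouse had received PHZ at 40 mg/kg into the peritoneum, 2 injections a day on 2 days, and the other mouse was untreated. Sections of 5 µm from fixed, paraffin-embedded spleen were imaged on 1 slide with Xenium, a method that reads single RNA molecules in place, with a panel of 477 genes (379 predesigned and 98 custom). A count is 1 decoded RNA molecule within the outline of a cell, which was drawn by widening the stained nucleus, so a cell can hold molecules of a cell pressed against it. With 1 section per condition there was no test of any difference: treatment, mouse and section cannot be told apart, and every interval given is a 95% interval that covers counting error only.

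Total counts in cells were 10351683 in the untreated and 11430388 in the PHZ spleen. The median cell held 84 and 104 counts, and the median monocyte-gated cell held 105 and 121. The spleens shared 1 cell barcode. Control probes gave 28 counts in all the monocyte-gated cells of the untreated spleen and 10 in those of the PHZ spleen. Median cell area was 38.3 µm2 in monocyte-gated cells and 35.5 µm2 in other cells of the untreated spleen, and 61.9 and 52.7 µm2 in the PHZ spleen.

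Monocyte-gated cells made up 4.48% (exact binomial interval 4.36 to 4.61) of the cells of the untreated spleen and 2.88% (2.78 to 2.99) of those of the PHZ spleen. The share after PHZ was 0.644 times the untreated share (0.614 to 0.675). The size of this gap depended on the gate: leaving Ms4a6c out of the rule gave 0.900, and leaving F13a1 out gave 0.510. After thinning every cell to 50 counts, which left out shallower cells, the shares were 2.75% of 91399 and 1.98% of 79842 cells. The unthinned shares are of all cells of a section. Cells with at least 3 counts of 16 erythroid genes were 44.8% of all cells untreated and 79.9% after PHZ. A share among the remaining cells was not calculated. The same rule took 2.66% of the cells of the E14.5 fetal liver and 4.92% of those of the P8 bone marrow, both measured with the same panel.

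The limit on C1q set much of the membership. Of the 12497 cells of the untreated spleen with 3 or more counts of the 4 gate genes, 61.2% were left out as C1q-positive, as were 71.3% of 9492 such cells in the PHZ spleen. The corresponding figure was 22.4% in the E14.5 fetal liver and 21.5% in the P8 bone marrow. Without the limit on C1q the share after PHZ was 0.870 times the untreated share. Clec4a3, a C-type lectin of myeloid cells, had 11.9% of its counts in the untreated spleen in monocyte-gated cells and 77.0% in C1q-positive cells. Ccr2 had 31.4% of its counts in monocyte-gated cells and 47.6% in C1q-positive cells.

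Most members were near the threshold. Exactly 3 gate counts were held by 2075 members of the untreated and 969 of the PHZ spleen, the median was 4 in both, and the highest were 42 and 52. Just outside, 5543 and 2610 cells under the C1q limit held 2 gate counts. The level of Itgam, which encodes the integrin CD11b of myeloid cells, was 5233 CPM in the untreated cells with 2 gate counts and 7026 CPM in those with 3, where CPM are a gene's counts over all gene counts of the cells, scaled to a fixed total. In the PHZ spleen these levels were 5003 and 7449 CPM. The T cell gene Cd3e went the other way untreated, at 16909 CPM with 2 gate counts and 15625 CPM with 3.

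**Figure D1:**
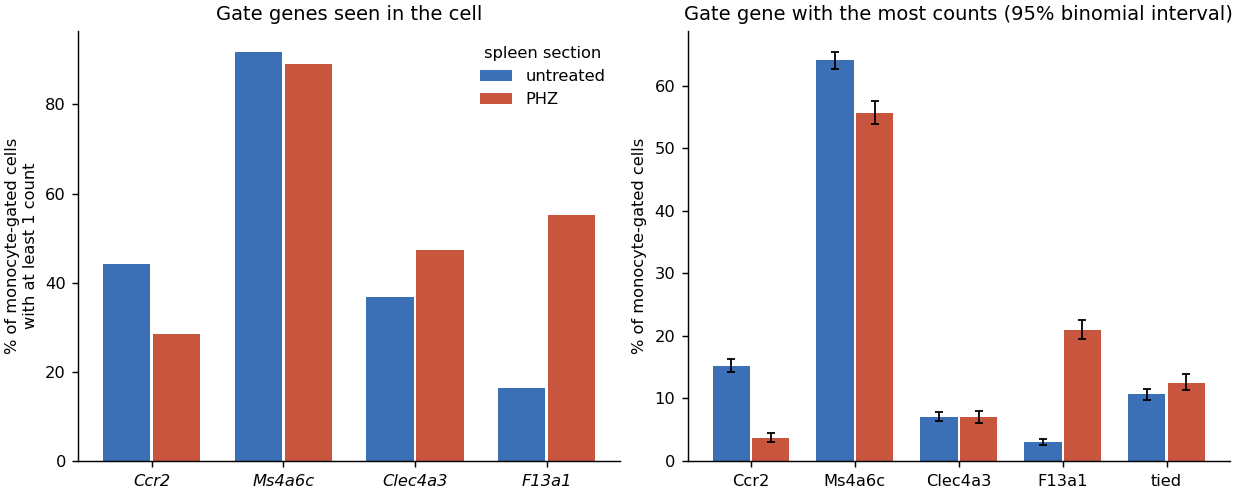
Left, percent of monocyte-gated cells with at least 1 count of each gate gene in the untreated (blue) and PHZ (red) spleen section. Right, percent of monocyte-gated cells in which each gate gene alone had the most counts, with exact 95% binomial intervals; F13a1 led in 3.01% of the untreated and 21.0% of the PHZ members.

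Which gate genes carried a cell into the gate differed between the sections, as a description of the rule. Ms4a6c, which encodes a membrane protein of myeloid cells, was seen in 91.8% of members of the untreated spleen and 89.1% of those of the PHZ spleen, at 2.93 and 2.94 counts per member. Ccr2 was seen in 44.3% of untreated and 28.6% of PHZ members, against 7.05% and 2.84% of other cells. F13a1, the A subunit of coagulation factor XIII, which monocytes and platelets both carry, was seen in 16.4% of untreated and 55.2% of PHZ members, against 2.63% and 7.17% of other cells. In the whole section, Ccr2 was at 1602 CPM untreated and 433 after PHZ, and F13a1 at 590 and 1209 CPM. Only 1 of the 4 genes was seen in 38.1% of untreated and 19.9% of PHZ members, and all 4 in 6.30% and 7.26%.

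The members were next set against all other cells of their own section, for genes outside the rule. In the untreated spleen 13 of 282 genes (4.61%) with at least 50 counts in members were at least 2-fold higher in members, and in the PHZ spleen 45 of 237 (19%) were. At least 2-fold lower in members were 33 genes untreated and 11 after PHZ, and the PHZ split of 45 higher and 11 lower became 33 and 31 when the 16 erythroid genes were left out of the CPM total. The filter on counts in members admits genes through the members, which favors the higher side. Filtered on the level over all cells of the section, 13 genes were higher and 36 lower untreated, and 42 and 16 after PHZ. The largest 10 folds of each section, among genes with at least 200 counts in members, shared Alox5ap, Hp, Ifitm6 and S100a4.

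Itgam, S100a4 and Alox5ap of the myeloid list and Ifitm6 of the neutrophil list were at least 2-fold higher in members than in other cells in both sections. Itgam was at 10002 CPM (9740 to 10269) in untreated members and 3481 CPM in other cells, and at 11130 (10794 to 11472) and 2766 CPM in the PHZ spleen. It was seen in 49.7% of untreated members against 18.8% of other cells, and in 59.2% against 17.9% after PHZ. S100a4, a calcium-binding protein of motile cells, was 3.21-fold higher in members than in other cells untreated and 4.10-fold higher after PHZ. Alox5ap, the protein that 5-lipoxygenase needs to make leukotrienes, was 2.73-fold and 4.33-fold higher. Ifitm6, a myeloid member of the interferon-induced transmembrane family, was 3.83-fold and 4.69-fold higher.

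Of the 19 myeloid genes listed outside the rule, 3 were at least 2-fold higher in members than in other cells untreated and 10 after PHZ. Over all genes compared, 4.61% and 19% were. The median log2 fold of the 19 genes was 0.32 untreated and 1.02 after PHZ, beside medians over all genes compared of -0.16 and 0.19. Lst1, a leukocyte transcript, went from 1.69-fold to 2.73-fold, and Ncf4, a subunit of the phagocyte oxidase, from 0.962-fold to 2.43-fold. These wider gaps after PHZ came with lower levels in the other cells: Ncf4 stood at 15308 CPM in other cells untreated and 3254 after PHZ.

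Macrophage genes were mostly lower in members than elsewhere, on the side the rule itself favors. None of the 18 macrophage genes compared untreated and 1 of 17 after PHZ was at least 2-fold higher, beside 4.61% and 19% of all genes. The list medians were -0.84 and -0.57 on the log2 scale, beside -0.16 and 0.19 over all genes. Mrc1, the mannose receptor, was 0.214-fold of other cells untreated and 0.571-fold after PHZ. Slc40a1, the iron exporter ferroportin, was 0.325-fold and 0.607-fold. Against C1q-positive cells alone, Slc40a1 in members was 0.199-fold untreated and 0.413-fold after PHZ. Spic, the transcription factor of red pulp macrophages, was 0.422-fold of other cells untreated and 1.25-fold after PHZ. Timd4 and Siglec1 went the other way in the untreated members in which Ms4a6c alone had the most gate counts. They were at 6312 and 3297 CPM there, against 3418 and 1221 CPM in other cells. Adgre1, also on the list, was at 3219 CPM in PHZ members led by Ms4a6c and 2922 CPM in those led by Clec4a3. It was at 1238 CPM in PHZ members led by F13a1 and 516 CPM in those led by Ccr2, against 1212 CPM in other cells.

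Ccl9, a chemokine of macrophages and other myeloid cells, had the largest fold over other cells in the untreated spleen. It was at 4977 CPM (4793 to 5167) in untreated members and 997 CPM in other cells, 4.99-fold. After PHZ it was at 12954 CPM (12592 to 13323) in members and 9052 CPM in other cells, 1.43-fold. It was seen in 22.9% of untreated members and 62.9% of PHZ members, and in 5.31% and 39.3% of other cells. Between the sections Ccl9 was 2.60-fold higher after PHZ in members and 9.08-fold higher in other cells.

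Other untreated leaders were Apoc2 at 3.38-fold, Runx2 at 2.65-fold, Kit at 2.31-fold and Slamf8 at 2.07-fold over other cells. Apoc2 is an apolipoprotein, Runx2 a transcription factor, Kit the stem cell factor receptor and Slamf8 a surface receptor of myeloid cells. In the PHZ spleen the leaders included Ctsg at 9.57-fold, Mmrn1 at 6.94-fold, Hp at 6.75-fold, Elane at 6.45-fold, Mpo at 5.62-fold, Saa3 at 5.45-fold and Mmp8 at 4.11-fold over other cells. Ctsg, Elane and Mpo encode proteins of the primary granules of early granulocyte and monocyte precursors, and Mmrn1 is a protein of platelets, megakaryocytes and endothelium.

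The label of monocytes was therefore checked against marker lists of other cells. The text calls the cells monocyte-gated throughout, because at least 3 counts of the neutrophil, granulocyte progenitor, platelet, T cell or NK cell list were held by all but 1576 of the 4854 untreated members and all but 1177 of the 2728 PHZ members. Some of these genes are shared with monocytes, Ifitm6 on the neutrophil list and Mpo on the progenitor list among them. Members with none of these lists at 3 counts were 32.5% (31.2 to 33.8) of the untreated and 43.1% (41.3 to 45.0) of the PHZ members. They were 1.45% and 1.24% of all cells, a ratio of 0.855. The macrophage, erythroid and endothelial lists were not part of this check, and no B cell list was used. These members still held Timd4 at 5230 and Cxcr5 at 7611 CPM untreated, and Slc4a1 at 29979 CPM after PHZ. Ly6c2, the usual surface marker gene of classical monocytes, is not on the panel.

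**Figure D2:**
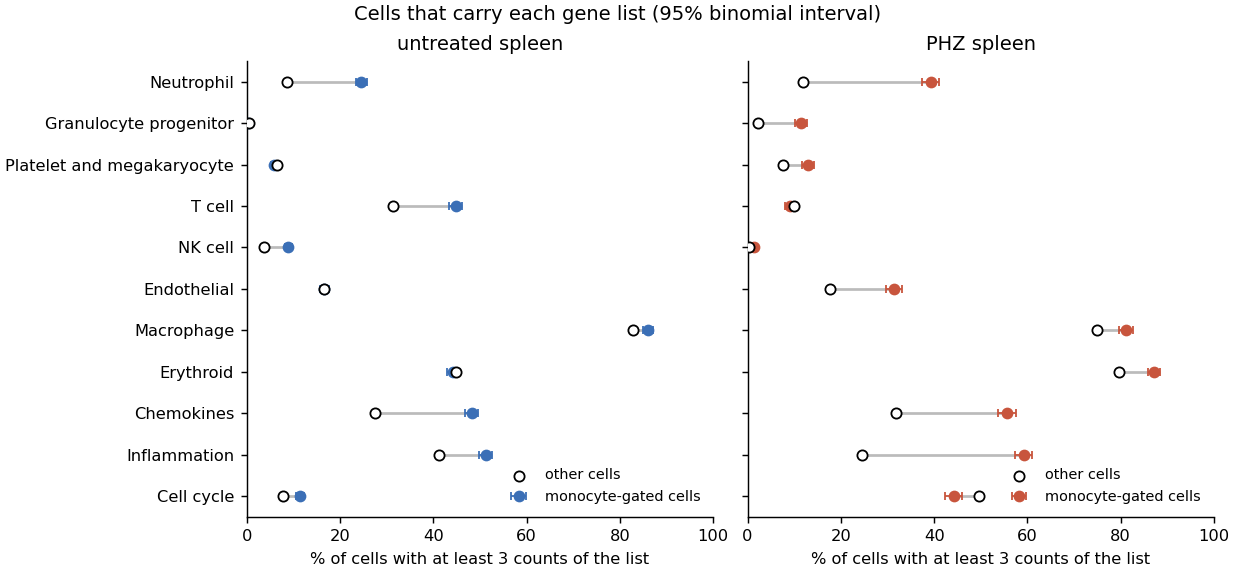
Percent of cells with at least 3 counts of each marker list (x axis, linear) among monocyte-gated cells (filled, with exact 95% binomial intervals) and other cells (open) of each spleen section. T cell genes stood at 44.8% of untreated and 9.02% of PHZ members, and granulocyte progenitor genes at 0.350% and 11.4%.

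The T cell list (9 genes) reached 3 counts in 44.8% of untreated members and 31.3% of other untreated cells, and in 9.02% and 10.03% after PHZ. With every cell thinned to 50 counts, these were 29.0% and 22.8% untreated, and 5.10% and 6.13% after PHZ. The T cell list summed to 38801 CPM in untreated members and 6358 after PHZ. The NK cell list (Ncr1, Klrb1c and Klra8) reached 3 counts in 8.88% of untreated and 1.39% of PHZ members, against 3.67% and 0.421% of other cells. Its summed level was 9037 CPM in untreated members and 1163 after PHZ, 2.03-fold and 1.99-fold of that in other cells.

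Counts of the 12 neutrophil genes reached 3 in 24.5% of untreated members (other cells 8.63%) and in 39.2% of PHZ members (other cells 12.0%). Thinned, the members' shares were 6.98% and 19.9%, and those of other cells 4.12% and 6.61%. The platelet and megakaryocyte list (Pf4, Ppbp, Mmrn1 and Vwf) reached 3 counts in 5.85% of untreated (other cells 6.57%) and 12.9% of PHZ members (other cells 7.62%), and summed to 7403 and 17517 CPM. The endothelial list (10 genes) reached 3 counts in 16.6% and 31.4% of members (other cells 16.6% and 17.7%). Thinned, it did so in 6.94% of untreated members against 9.67% of other cells, and in 9.09% of PHZ members against 6.84%. No listed gene was at 0 in the members of either section, and the lowest counts were 3 of Hpx and 4 of Areg, both after PHZ.

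Erythroid RNA was present in the members of both sections. The 16 erythroid genes took 29301 CPM of the counts of untreated members and 189062 CPM of those of PHZ members, 0.598-fold and 0.593-fold of other cells. Slc4a1, the band 3 anion exchanger of the red cell membrane, was seen in 7.73% of untreated and 64.4% of PHZ members, and in 11.5% and 64.8% of other cells. How much of this RNA lay in red cell precursors pressed against a member was not tested.

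The 4 gate genes picked out members with different company. Each member was sorted by the gate gene with the most counts, which depends on how well each probe set detects its gene. In the untreated spleen Ms4a6c led in 3111 members (64.1%), Ccr2 in 737 (15.2%), Clec4a3 in 344 (7.09%) and F13a1 in 146 (3.01%), with 516 ties. In the PHZ spleen Ms4a6c led in 1520 (55.7%), F13a1 in 573 (21.0%), Clec4a3 in 192 (7.04%) and Ccr2 in 101 (3.70%), with 342 ties.

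Members led by F13a1 carried megakaryocyte genes in both sections. In the untreated spleen Mmrn1 was at 17628 CPM (15809 to 19599) in members led by F13a1 and 413 CPM in the other members. Vwf, the von Willebrand factor of platelets and endothelium, was at 16855 CPM there and 407 CPM in the rest. Pf4 and Ppbp, chemokines of platelet granules, were at 29328 and 27679 CPM, against 1479 and 2046 CPM in the rest. After PHZ the F13a1-led members again held more Mmrn1, at 6870 CPM against 234 CPM in other members.

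F13a1-led and Ccr2-led members of the PHZ spleen also carried precursor genes. Elane was at 12673 CPM and Mpo at 12124 CPM in members led by F13a1 and 8037 and 10397 CPM, from 109 and 141 counts, in those led by Ccr2, compared with 2769 and 2621 CPM in members led by Ms4a6c and 1000 and 1230 CPM in those led by Clec4a3. Ctsg was at 7171 CPM (6637 to 7737) in F13a1-led and 3097 CPM in Ccr2-led members. In the untreated F13a1-led members Elane and Mpo were at 1804 and 2062 CPM, from 35 counts of Elane. Cd34, a surface marker of progenitors and endothelium, was at 1917 CPM in the F13a1-led PHZ members and 227 CPM in the rest. In the 311 PHZ members with at least 3 progenitor counts, F13a1 made 40.1% and Ms4a6c 36.3% of the gate counts.

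Members led by Ccr2 carried NK cell genes. In the untreated spleen Ncr1, the NK receptor NKp46, was at 10267 CPM in them and 1260 CPM in the other members, 8.15-fold. Klrb1c, which encodes NK1.1, was at 13171 and 2417 CPM. Cd3e, a chain of the T cell receptor complex, was at 16834 CPM in Ccr2-led members and 12342 CPM in Ms4a6c-led members, while Cd4 was at 7658 and 9433 CPM. After PHZ, Ncr1 was at 2949 CPM in the 101 Ccr2-led members, from 40 counts, and 163 CPM in the rest.

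Members led by Clec4a3 in the untreated spleen held more of some myeloid and neutrophil genes than those led by Ms4a6c. Itgam was at 18950 CPM in them and 9556 CPM in Ms4a6c-led members, and Ifitm6, of the neutrophil list, at 10005 and 5549 CPM. The neutrophil genes Csf3r, S100a9 and Pglyrp1 were at 4902, 2609 and 6364 CPM, against 1759, 839.01 and 2668 CPM. Other genes of both lists were lower instead, among them Cxcr2 at 889 against 1505 CPM and Plbd1 at 26088 against 29810 CPM. Il1b, the inflammatory cytokine interleukin 1 beta, was at 6135 and 3686 CPM, and Lst1 at 6938 and 2967 CPM. C5ar1, the receptor for complement fragment C5a, was at 1347 CPM in Clec4a3-led and 245 CPM in other untreated members. After PHZ the 2 sets lay closer for Itgam, at 10918 CPM in Clec4a3-led and 11373 CPM in Ms4a6c-led members. This did not hold for every gene. Cxcr2 was then higher in Clec4a3-led members, at 1538 against 966 CPM. Emb, of the myeloid list, was at 6078 against 8362 CPM untreated and 2114 against 5896 CPM after PHZ.

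Members led by Ms4a6c in the untreated spleen held more Timd4, Siglec1 and Cxcl13 than the rest. Timd4, a receptor for dying cells on resident macrophages, was at 6312 CPM in them and 1799 CPM in other members. Siglec1, the sialoadhesin of marginal metallophilic macrophages, was at 3297 and 666 CPM. Cxcl13, the chemokine that draws B cells into follicles, was at 4771 and 1343 CPM. Some macrophage genes, Mrc1 and Slc40a1 among them, went the other way. They were at 934 and 7160 CPM in Ms4a6c-led, 1707 and 8536 CPM in Ccr2-led, and 1949 and 12041 CPM in Clec4a3-led members. All of these cells had C1q counts under 3, by the rule.

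The levels within members were then compared between the sections. Of 319 genes with at least 50 counts in the members of both sections together, 74 (23.2%) were at least 2-fold higher after PHZ and 102 (32%) at least 2-fold lower. The median log2 fold over these genes was -0.25 in members and -0.61 in other cells. Leaving the erythroid genes out of the CPM total brought the median to 0.01 in members and -0.13 in other cells, with 86 genes higher and 83 lower in members. In other cells 57 of the 319 genes were at least 2-fold higher and 120 at least 2-fold lower. Of the 74 genes higher in members, 55 were at least 2-fold higher in other cells too. Of the 102 lower, 84 were at least 2-fold lower in other cells.

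**Figure D3:**
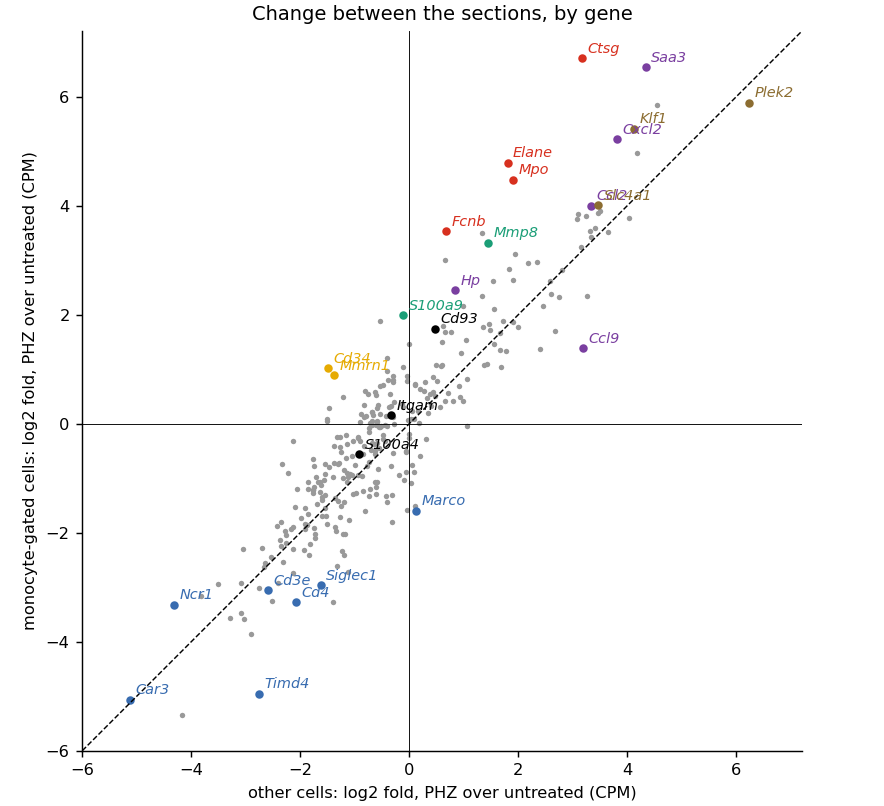
Each point is 1 of the genes compared, with its log2 fold of PHZ over untreated CPM in other cells (x axis) and in monocyte-gated cells (y axis); the dashed line marks equal folds and colors group named genes. Ctsg, Elane, Mpo and Fcnb lie above the line, Timd4, Marco and Ccl9 below it, and Car3 and Plek2 near it.

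All 4 granulocyte progenitor genes were at least 2-fold higher after PHZ in members, beside 23.2% of all genes compared. In other cells 3 were, beside 57 of all 319 genes. Their median log2 fold was 4.63 in members and 1.85 in other cells. Ctsg was at 25.3 CPM (13.8 to 42.5, 14 counts) in untreated and 2635 CPM (2473 to 2805) in PHZ members, 104-fold (61.7 to 191), and 8.99-fold in other cells. Elane, neutrophil elastase, was 27.6-fold higher (22.8 to 33.7) and Mpo, myeloperoxidase, 22.3-fold (18.8 to 26.7), beside 3.49-fold and 3.73-fold in other cells. Fcnb, a ficolin of developing granulocytes, was 11.6-fold higher (8.30 to 16.6) in members and 1.60-fold in other cells. These genes came from a minority of cells: Elane was seen in 14.7% of PHZ members, Mpo in 14.1% and Ctsg in 7.07%, against 3.88%, 4.04% and 1.22% of other cells.

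Among the 12 neutrophil genes, 6 were at least 2-fold higher in members after PHZ and none was 2-fold lower. Over all genes compared, 23.2% were higher and 32% lower in members. In other cells 3 of the neutrophil genes were higher and 1 lower, beside 57 and 120 of all 319 genes. S100a9, a subunit of calprotectin, was at 1116 CPM (1030 to 1208) untreated and 4446 CPM (4235 to 4665) after PHZ in members, and at 2248 and 2084 CPM in other cells. It was seen in 6.16% of untreated and 27.0% of PHZ members. Mmp8, neutrophil collagenase, was 9.98-fold higher, Il1r2, a decoy receptor for interleukin 1, 8.66-fold, and Mrgpra2a 11.3-fold. Ifitm6 differed little, at 5605 and 4883 CPM.

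Saa3 and Hp were among the genes higher in members after PHZ. Saa3, an acute phase serum amyloid made by macrophages and other local cells, was at 92.3 CPM (68.7 to 121, 51 counts) in untreated and 8577 CPM (8283 to 8879) in PHZ members, 93.0-fold (70.5 to 125). It was 20.2-fold higher in other cells, and was seen in 40.1% of PHZ members and 10.6% of other PHZ cells. Hp, which encodes haptoglobin, the plasma protein that binds free hemoglobin, was at 1359 CPM untreated and 7396 after PHZ, 5.44-fold (5.02 to 5.91) in members and 1.79-fold in other cells. In members without any of the other-class lists at 3 counts, Saa3 was 74.7-fold and Hp 2.33-fold higher.

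Of the 13 chemokine genes compared, 8 were at least 2-fold higher in members after PHZ (23.2% of all genes) and 3 lower (32%). Among other cells the counts were 8 and 1, beside 57 and 120 of all 319 genes. Ccl2, the ligand of Ccr2, was at 97.7 CPM (73.4 to 127) untreated and 1563 CPM (1439 to 1695) after PHZ, 16.0-fold, beside 10.1-fold in other cells. Ccl7, another ligand of Ccr2, was 12.1-fold and 10.6-fold higher. Cxcl2, a neutrophil attractant, was at 47.0 CPM (26 counts) and 1747 CPM, 37.1-fold (25.1 to 57.3) in members and 14-fold in other cells. Ccl3 and Ccl4, chemokines of activated myeloid cells and lymphocytes, were 3.16-fold and 3.54-fold higher. In the members without other-class lists Ccl3 was 6.87-fold (4.62 to 10.5), Ccl4 12.9-fold (8.48 to 20.4) and Ccl2, from 8 untreated counts, 40.2-fold (20.2 to 94.03) higher. Over all members Cxcl13 was at 0.331 of the untreated level, but at 1.85 with no limit on C1q. Ccl5, a chemokine of T and NK cells, was at 0.183 of it over all members.

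Other inflammation genes were mixed, with 4 of 11 at least 2-fold higher and 4 lower in members, beside 23.2% and 32% of all genes. Il1b was at 3523 and 3953 CPM in members, and at 2730 and 1729 CPM in other cells. C5ar1 was 7.12-fold higher in members (6.04 to 8.44) and 3.57-fold in other cells. Il4ra, a chain of the interleukin 4 receptor, was at 0.457 of the untreated level. Among 10 interferon-linked genes, Rsad2 (9.43-fold) and Isg20 (4.49-fold) were higher, as in other cells (8.88-fold and 5.44-fold). Lower were 4 in members and 6 in other cells, where 57 of all 319 genes were higher and 120 lower. The members' shares of this interferon-linked list were near the 23.2% and 32% of all genes compared. Among those lower were Epsti1, at 0.300, and Psmb8, at 0.318 of the untreated level.

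None of the 19 listed myeloid genes was 2-fold higher after PHZ. At least 2-fold lower were 6, a share near the 32% of all genes compared. Their median log2 fold was -0.56 in members and -1.09 in other cells. Counts of this list were not confined to members. At least 3 were held by 98.3% of other untreated and 83.3% of other PHZ cells, against 99.96% and 99.5% of members. Itgam was 1.11-fold (1.07 to 1.16), Cd68, a lysosomal protein of phagocytes, 1.38-fold and Alox5ap 1.26-fold of the untreated level. In the members without other-class lists Itgam and Alox5ap were instead below it, at 0.851 (0.791 to 0.916) and 0.854 (0.802 to 0.910), and Cd68 was at 1.51. Erythroid genes stayed in the total for these values, with Slc4a1 at 1649 CPM untreated and 29979 CPM after PHZ in these members. Whether Itgam and Alox5ap stay below 1 without erythroid genes was not calculated. Over all members S100a4 was at 0.676 of the untreated level, and Ifitm6 at 0.871, or 1.04 without erythroid genes in the total. Plbd1, a phospholipase B-like protein, was at 27041 and 6193 CPM, and Cybb, the catalytic subunit of the phagocyte oxidase, at 20120 and 8785 CPM. Both were also lower in other cells, at 0.193 and 0.277 of the untreated level. Cd93, a receptor of myeloid and endothelial cells, was 3.35-fold higher in members and 1.39-fold in other cells.

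Of the 19 macrophage genes, none was at least 2-fold higher in PHZ members and 6 were lower, a share near the 32% of all genes compared. In other cells 8 were lower, beside 120 of all 319 genes. The list medians for members and other cells were -0.70 and -0.82 on the log2 scale. Timd4 was at 4718 CPM (4539 to 4903) untreated and 152 CPM (115 to 197, 57 counts) after PHZ, a level 31.04-fold lower, and 6.75-fold lower in other cells. Siglec1 was 7.79-fold lower in members and 3.08-fold lower in other cells. Marco, the scavenger receptor of marginal zone macrophages, was 3.03-fold lower in members and at 1.09-fold in other cells, and with no limit on C1q it was instead 2.60-fold higher among the gated cells. Slc40a1 (1.47-fold), Mrc1 (1.51-fold) and Maf (1.46-fold) were above the untreated level in members. In the members without other-class lists they were at 1.63, 2.03 (1.71 to 2.41) and 2.48 (2.30 to 2.67) of it. In other cells they were at 0.785, 0.567 and 0.588 of it, and Slc40a1 alone changed side there (1.10) when erythroid genes were left out of the total.

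Lymphocyte genes were lower after PHZ in members and other cells alike. Of 9 T cell genes, 8 were at least 2-fold lower in each, beside 32% of all genes compared in members and 120 of 319 in other cells. Cd3e was at 11925 CPM untreated and 1432 after PHZ in members, 8.33-fold lower, and 6.04-fold lower in other cells. Cd4, the T helper co-receptor, was 9.71-fold lower and 4.21-fold lower. Ncr1 was 9.98-fold and Klra8 9.56-fold lower in members. Cxcr5, the receptor for Cxcl13 on follicular lymphocytes, was 11.04-fold lower in members and 8.55-fold in other cells.

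The largest fold lower in members was that of Car3, a carbonic anhydrase abundant in fat and muscle, at 892 and 26.7 CPM, from 493 and 10 counts. It was seen in 1.44% of untreated members, and was 34.8-fold lower in other cells too. Kcnj16, a potassium channel gene, was 12.0-fold lower in members and 8.22-fold in other cells.

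All 16 erythroid genes were at least 2-fold higher in PHZ members, beside 23.2% of all genes compared. In other cells 15 were, beside 57 of all 319 genes. Klf1, the transcription factor of red cell precursors, was at 150 CPM untreated and 6382 after PHZ in members, 42.5-fold, and 17.4-fold higher in other cells. Rhd was 57.9-fold and Hemgn 31.3-fold higher in members. Plek2, a late erythroid cytoskeletal gene, was 59.3-fold higher in members and 75.2-fold in other cells. All 4 cell cycle genes were at least 2-fold higher as well in both groups of cells, beside the same shares of all genes. Their median log2 fold was 1.53 in members and 2.54 in other cells. Ube2c, a ubiquitin carrier of mitosis, was at 5193 CPM in PHZ members and 9394 CPM in other PHZ cells.

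Of the 4 platelet genes, 2 were at least 2-fold higher in members after PHZ, beside 23.2% of all genes. Vwf was at 4.44-fold and Ppbp at 2.29-fold, and Pf4 and Mmrn1 were at 1.84 and 1.85 of the untreated level. In other cells Ppbp, Pf4 and Mmrn1 were at 0.755, 0.809 and 0.385 of the untreated level, and Vwf was 1.97-fold higher. Without erythroid genes in the total, Ppbp and Pf4 in other cells were at 1.05 and 1.13, and Mmrn1 at 0.537. In the members without other-class lists, which hold under 3 counts of these genes each, Vwf was at 3.98, Pf4 at 1.10, Ppbp at 1.00 and Mmrn1 at 0.382 (0.173 to 0.781, from 31 untreated and 11 PHZ counts) of the untreated level. These values keep the erythroid genes in the total, and values without them were not calculated.

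The shorter lists were mixed, and the shares of iron and endothelial genes called were not far from those of all genes compared, 23.2% higher and 32% lower. Of 8 iron and haem handling genes compared, 2 were at least 2-fold higher in PHZ members, Hp and the transferrin receptor gene Tfrc (2.04-fold), and 2 were lower, the transferrin gene Trf (0.268) and Cd163, the scavenger receptor for haptoglobin and hemoglobin (0.287). Of 10 endothelial genes, 3 were higher and 2 lower, with Cd34 at 2.03-fold in members and at 0.280 in the members without other-class lists. Cpa3, a mast cell protease, was at 0.971 of the untreated level, Il4 at 0.333 and Lamp3, a gene of mature dendritic cells, at 0.246.

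**Figure D4:**
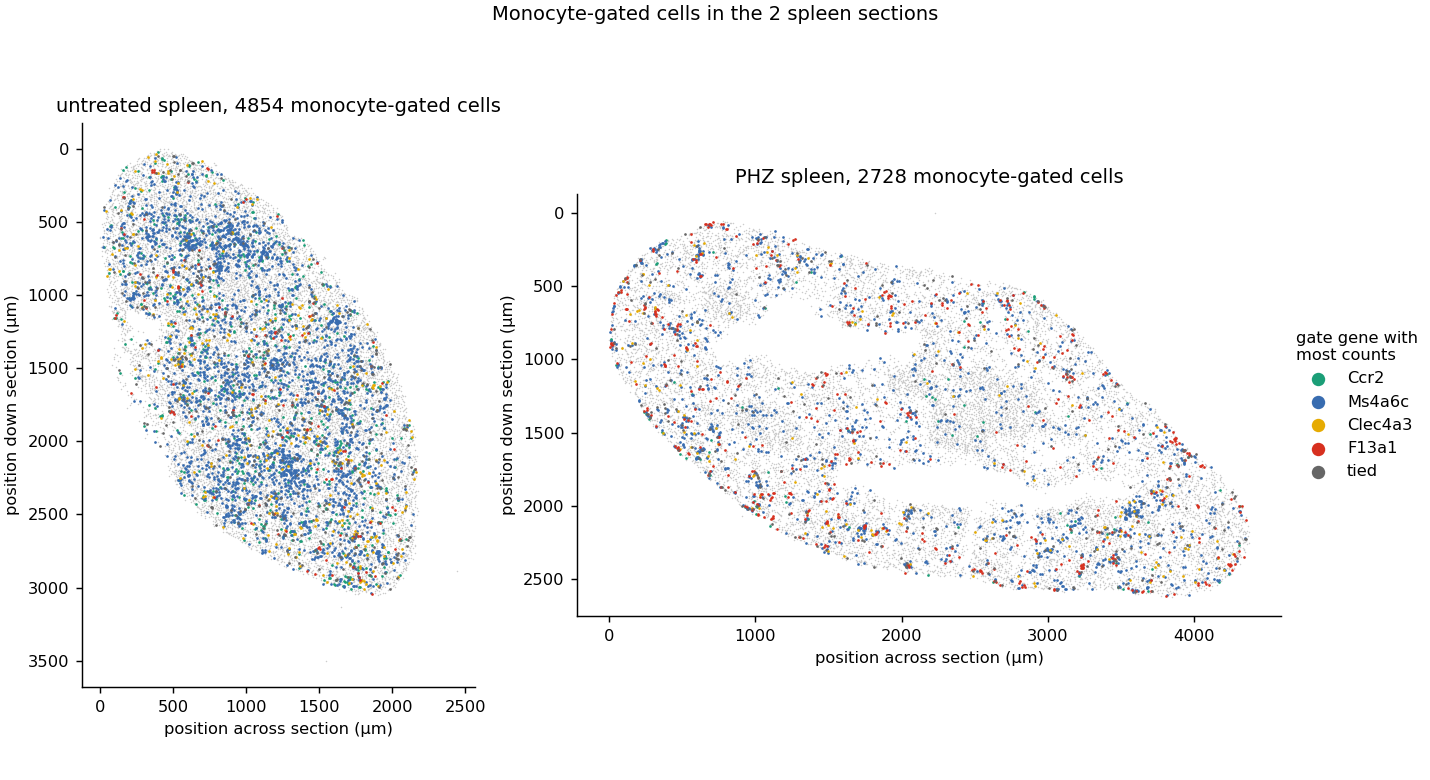
Positions (µm) of monocyte-gated cells in the 2 spleen sections, colored by the gate gene with the most counts in the cell, over a sample of all cells in gray. Members form patches in both sections, and F13a1-led members (red) are 146 in the untreated and 573 in the PHZ section.

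Members lay in patches in both sections. In squares 500 µm wide with at least 200 cells, they made 1.85 to 6.71% of cells over 26 squares of the untreated spleen and 0.704 to 11.6% over 40 squares of the PHZ spleen. The nearest other member was a median of 9.66 µm away untreated and 12.8 µm after PHZ. For cells outside the gate the nearest member was 15.7 and 27.9 µm away.

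**Figure D5:**
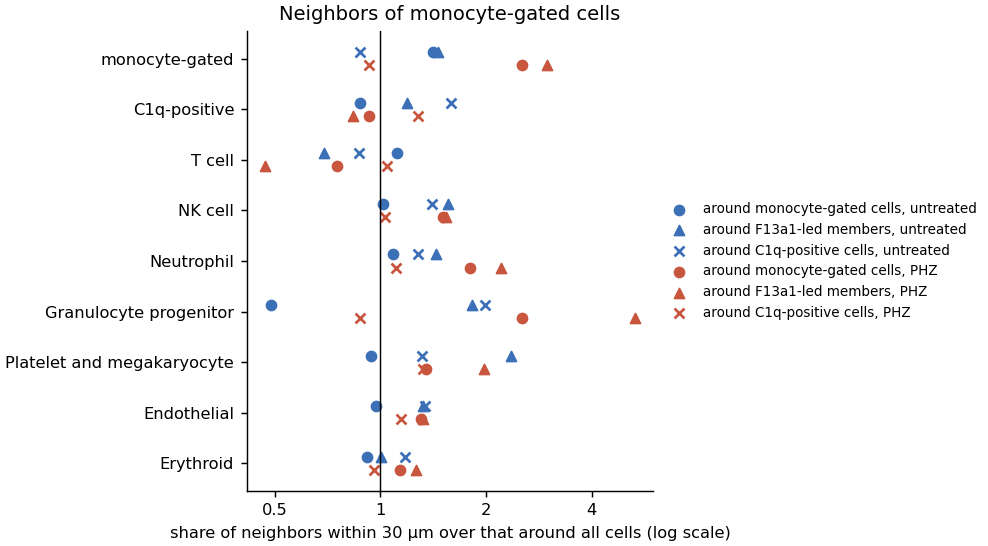
Share of the cells within 30 µm that belonged to each class, around monocyte-gated cells (circles), F13a1-led members (triangles) and C1q-positive cells (crosses), over the same share around all cells of the section (log axis). Granulocyte progenitor cells were at 2.54 around PHZ members and 5.31 around the F13a1-led ones, at 0.832 around PHZ members without other-class lists (not drawn), and at 0.487 around untreated members. The all-cell reference includes the C1q-positive cells.

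Within 30 µm of a member, other members made 6.49% of the cells in the untreated spleen, 1.42 times the share around all cells. After PHZ they made 6.56%, 2.53 times. C1q-positive cells made 28.6% of the cells around untreated members and 31.3% after PHZ. These were 0.876 and 0.930 times the shares around all cells, which include the C1q-positive cells themselves, but 1.25 and 1.09 times those around the other cells under the C1q limit (22.9% and 28.7%). The nearest C1q-positive cell was a median of 7.46 µm from untreated members and 8.48 µm from those other cells, and 9.75 and 9.07 µm after PHZ.

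The other neighbors differed between the sections. T cells, by the list at 3 counts, were 1.11 times as common around untreated members and 0.751 times around PHZ members. Neutrophil-list cells were at 1.09 and 1.80, and granulocyte progenitor cells at 0.487 and 2.54. Relative to the other cells under the C1q limit, progenitor cells were at 0.932 and 2.53. Around members without other-class lists, 2 of these were on the other side of 1: T cells untreated at 0.916 and progenitor cells after PHZ at 0.832. Neutrophil-list cells after PHZ were at 1.33 there. Around the Ccr2-led PHZ members progenitor cells were at 3.65. Around the F13a1-led PHZ members, progenitor cells were 5.31 times and platelet-list cells 1.98 times as common as around all cells. Around C1q-positive cells of the PHZ spleen, progenitor cells were at 0.874. Erythroid-list cells made 82.6% of the neighbors of PHZ members and 72.6% of those of all PHZ cells.

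The part of the gate counts that lay over the nucleus was higher in members than elsewhere, for genes that themselves chose the cells. Of Ms4a6c molecules in untreated members, 71.3% lay over the nucleus, against 64.0% in other cells, and after PHZ the figures were 56.4% and 43.5%. For F13a1 they were 64.1% and 53.4% untreated, and 52.3% and 39.6% after PHZ. For Ccr2 the gap was smaller, with 73.0% and 67.9% untreated, and 63.9% and 61.2% after PHZ. Over all genes they were 64.1% and 58.6% untreated, and 50.8% and 51.0% after PHZ. With the rule applied to molecules over the nucleus alone, 4356 untreated and 1984 PHZ cells were members, a ratio of shares of 0.522.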

How the data were processed

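Xenium output of the untreated and PHZ spleen was used as deposited (instrument software 1.7.6.0, analysis software 1.7.1.0 per the file headers). The authors deposited counts of decoded molecules per cell and gene, not normalized, with cell positions and areas, and the quality score of each molecule (20 or more for those counted). Cell outlines were those of the instrument. Cells were gated on raw counts, and counts were summed per section and gene, as CPM over all gene counts of the cell group. Only genes with at least 50 counts were compared, and called meant at least 2-fold. Shares have exact binomial (Clopper-Pearson) intervals, and folds have exact conditional intervals of 2 counts, at 95%, covering counting error only. No section was replicated, so nothing was tested. Probe sets differ in number per gene, so levels were not compared between genes. No cells were removed as doublets.

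The members and lists were chosen with earlier results of these data known. Genes were named from the lists, from the 10 largest rises and falls between sections (200 counts or more), and from the 10 largest folds over other cells per section. Itga8, Sfrp1 and Timp3 were named after their values were seen. Alternatives changed the gate, the C1q limit, the scaling, the filter, and the neighbor radius (15 or 50 µm). Calculations used Python 3.11.15, numpy 2.4.6, scipy 1.17.1 and pandas 2.3.3, and were tested on simulated data.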

Additional observations from a re-analysis of the deposited data

Results flagged for a closer look

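For 7 genes the level in monocyte-gated cells against other cells of the same section went opposite ways in the 2 spleens, at least 1.5-fold each way. The difference was not tested, since each condition had 1 section. S100a9 was 0.497-fold of other cells untreated and 2.13-fold after PHZ, and Mrgpra2a, a neutrophil receptor, 0.665-fold and 2.98-fold. Cd34 was 0.629-fold and 3.58-fold. In the members with no other-class list at 3 counts, neutrophil genes are low by construction. There the values were 0.138 and 0.368 for S100a9, 0.437 and 0.332 for Mrgpra2a, and 0.9503 and 0.748 for Cd34. All were below 1 in both sections, but Mrgpra2a rested on 9 untreated and 16 PHZ counts and Cd34 on 73 and 19. No interval was calculated for these values, so whether Cd34 lay below 1 is not settled.

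Maf, a transcription factor of macrophages and T cells, was 0.645-fold untreated and 1.60-fold after PHZ, and 0.539-fold and 2.27-fold in the members without other-class lists. The other genes were Itga8, an integrin chain (0.479-fold and 1.64-fold), Sfrp1, a secreted Wnt antagonist (0.492-fold and 1.60-fold), and Timp3, a metalloproteinase inhibitor (0.641-fold and 1.93-fold). In the members without other-class lists Itga8 was 0.855-fold and 1.38-fold, Sfrp1 0.768-fold and 1.17-fold, and Timp3 0.748-fold and 0.938-fold. With erythroid genes left out of the CPM total, the PHZ values were 1.34 for Maf, 1.38 for Itga8, 1.35 for Sfrp1 and 1.62 for Timp3.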

How the results depend on the processing

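The share of monocyte-gated cells stayed lower in the PHZ section under all alternatives run, with PHZ over untreated between 0.510 and 0.900 (0.644 as reported). It was 0.588 with a minimum of 2 gate counts and 0.836 with 5, 0.769 without Ccr2, 0.900 without Ms4a6c and 0.510 without F13a1, 0.613 with no count of C1q and 0.870 with no limit on C1q. It was 0.522 from molecules over the nucleus, 0.518 without members carrying 3 neutrophil counts, and 0.720 with cells thinned to 50 counts. Among alternatives added after seeing the data, it was 0.855 for members with no other-class list at 3 counts and 0.560 for those led by Ms4a6c.

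The 74 genes higher after PHZ ranged from 56 to 87. The 102 lower became 65 in members at least 15 µm from C1q-positive cells, 165 with no filter on low counts and 60 with at least 200 counts. The median log2 fold over all genes was 0.01 without erythroid genes in the total and 0.02 as counts per cell, against -0.25. It was 0.37 in members at least 15 µm from C1q-positive cells, with 82 genes higher and 65 lower of 210, -0.44 in those with no other-class list and -0.49 with no filter. Genes 2-fold over other cells became 29 untreated when compared with C1q-positive cells, against 13, and 22 after PHZ in members with no other-class list, against 45. With a filter on the level over all cells, chosen after seeing the data, they were 13 and 42. Members around members were at 1.76 within 15 µm and 1.28 within 50 µm untreated, and at 4.04 and 1.97 after PHZ.

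Changes of side were sought in neighbor ratios away from 1 and in genes of the lists or of the 10 largest rises and falls. The other called genes, and genes below an alternative's count filter, were not checked. Of the neighbor ratios and the checked genes at least 2-fold apart, 10 values changed side under at least 1 alternative, in 16 cases. Cd34 was at 0.824 without F13a1, 0.930 with no limit on C1q, 0.280 with no other-class list and 0.846 in Ms4a6c-led members, against 2.03. With no limit on C1q Cxcl13 was at 1.85 and Marco at 2.60. Untreated endothelial neighbors were at 1.02 within 15 µm and NK neighbors at 0.975 within 50 µm. Around members with no other-class list, an alternative also added after seeing the data, untreated T cells were at 0.916, NK cells at 0.995 and endothelial cells at 1.04, and after PHZ progenitor cells were at 0.832 and members at 2.16. Relative to other cells under the C1q limit, also added after seeing the data, C1q-positive cells were at 1.25 and 1.09, and untreated platelet-list cells were at 1.12, endothelial cells at 1.18 and members at 1.37, and members after PHZ at 2.59. In members with no other-class list, with erythroid genes in the CPM total, genes under 2-fold changed side too. Among them were Itgam at 0.851, Alox5ap at 0.854 and Mmrn1 at 0.382. The cause was not tested. No paired analysis was possible because each condition had 1 section. Counts per gene limit the precision: Ctsg and Cxcl2 had 14 and 26 counts in untreated members.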
